A study of Drosophila melanogaster with 3 samples.

Results

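The 10 genes described here are core genes of the Drosophila melanogaster germline and of its PIWI-interacting RNA (piRNA) pathway: piwi, aub, AGO3, zuc, papi, vas, tud, spn-E, nos and orb. They were listed by name and make up 10 of the 13968 protein-coding genes of the Ensembl annotation. A region was counted at a gene when its summit, the point of highest signal, lay inside the gene or within 1000 bp of it. It was called a promoter region when the summit lay within 500 bp of one of the gene's annotated transcription start sites, and another region otherwise. Binding of the CG3838 (brwl) protein had been mapped by chromatin immunoprecipitation and sequencing (ChIP-seq). The material was whole embryos of mixed sex, 0 to 24 h old, of strain CG3838-GFP, which stably expresses CG3838 fused at its C-terminal end to eGFP. The 3 biological replicates form 1 group, and the description names an anti-GFP antibody where the antibody field names CG3838. No untagged line was analysed here, and in whole embryos the cells from which a signal came cannot be told apart.

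piRNAs are short RNAs that guide PIWI-clade Argonaute proteins to transposon transcripts in the gonads, where transposons are then silenced. Long precursors are cut at the outer mitochondrial membrane. Aub and AGO3 amplify the pool by slicing sense and antisense transcripts in turn in the nuage, a perinuclear granule of germ cells. Several of the same proteins are loaded by the mother into the pole plasm of the egg, from which the germ cells of the embryo form.

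Regions past the replicate-based threshold were found at 4 of the 10 genes, and papi held the strongest. The thresholded list has 2239 regions, with signals from 103.5 to 1796 and a median of 148.5. Promoter regions of this list lay at papi, orb and piwi, which is 3 of 10 genes, where 11.6% of all protein-coding genes had one. With the wider rule zuc joined them, making 4 of 10 against 17.6% of all protein-coding genes. The sequences around the promoter summits are shown because the results turn on these summits and because they differ in composition and motif content. Each line gives the summit with 50 bases of dm6 on either side, read 5′ to 3′ on the strand of the gene, and capitals mark matches to the motifs searched. The windows are both papi summits, chr2L:2221760-2221860 and chr2L:2221959-2222059 on the forward strand, orb, chr3R:23281098-23281198 on the reverse strand, and piwi, chr2L:10987569-10987669 on the reverse strand. Those of vas, chr2L:15061417-15061517, spn-E, chr3R:15837313-15837413, and nos, chr3R:19157025-19157125, all on the forward strand, lay at regions below the threshold and are given for comparison.
papi, first summit: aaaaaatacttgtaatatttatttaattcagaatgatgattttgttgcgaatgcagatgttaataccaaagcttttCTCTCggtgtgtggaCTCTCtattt
papi, second summit: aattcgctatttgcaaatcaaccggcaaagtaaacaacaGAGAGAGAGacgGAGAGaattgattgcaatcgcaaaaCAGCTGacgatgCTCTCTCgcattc
orb: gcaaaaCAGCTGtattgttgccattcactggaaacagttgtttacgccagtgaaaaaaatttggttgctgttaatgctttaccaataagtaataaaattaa
piwi: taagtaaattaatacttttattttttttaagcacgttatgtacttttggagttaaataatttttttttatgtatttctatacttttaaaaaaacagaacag
vas: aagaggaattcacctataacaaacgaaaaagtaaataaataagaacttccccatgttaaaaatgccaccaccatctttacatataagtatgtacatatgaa
spn-E, second summit: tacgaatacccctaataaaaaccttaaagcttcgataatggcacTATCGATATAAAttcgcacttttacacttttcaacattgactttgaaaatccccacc
nos: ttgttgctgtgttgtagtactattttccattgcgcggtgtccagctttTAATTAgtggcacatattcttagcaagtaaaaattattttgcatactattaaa

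The piwi window is the poorest in G and C of those shown, with 17.8% of its bases, and like the vas window holds no motif match. Both papi windows hold GAGAG, the letters bound by GAGA factor, with 2 and 6 matches, counted on both strands and with overlaps allowed, and the second also holds the E-box CAGCTG, as does orb. The spn-E window holds TATCGATA, the DNA replication-related element (DRE), whose last bases overlap a TATAAA match. The nos window holds 1 match to TAATTA, the core of many homeodomain sites.

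Of the 3 genes of AGO proteins, only piwi had a thresholded region in the gene or within 1000 bp, where 17.6% of all protein-coding genes had one. piwi (FBgn0004872), which encodes the nuclear PIWI protein that silences transposons at the chromatin, spans chr2L:10982205-10987420 on the reverse strand. Its thresholded summit at 10987619 had a pooled signal of 129.5 and ranked 1440. It lay 199 bp upstream of the piwi start site and 187 bp upstream of the divergent start of CG12253, so that the neighbour's start was slightly nearer. In the replicates the region had signals of 43.65, 27.13 and 55.22 and ranks of 1112, 5155 and 982. It was thus among the strongest 2239 regions in replicates 1 and 3 but not in replicate 2, where 17.2% of the list was stronger. A second pooled summit at 10987821 had a signal of 52.18 and lay 15 bp inside CG12253. Each replicate list held only 1 promoter region at piwi, so this second summit had no separate counterpart. Another pooled summit, at 10986205 in a piwi intron, had a pooled signal of 62.12 and replicate signals of 11.95, 22.48 and 22.21.

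aub (FBgn0000146), which encodes the cytoplasmic PIWI protein that slices transposon transcripts in the nuage, had no pooled region in its 3658 bp or within 1000 bp of them. It lies on the reverse strand at chr2L:10997819-11001476, and the divergent gene lectin-33A starts 596 bp away. Only replicate 1 listed a region there, with a signal of 12.01 and rank 28112 of 30000, at 369 bp upstream of the start. This was near the lowest signal of that list, 11.7, and the other lists held nothing at the gene.

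AGO3 (FBgn0250816), the partner of Aub in piRNA amplification, is by far the longest of the 10 genes, with 135048 bp on the forward strand at chr3L:23554593-23689640. Annotated transposon copies, 106 in number, cover 70.5% of it. No list held a promoter region at AGO3. The pooled list held 2 weak intronic regions, 54738 and 130588 bp downstream of the nearest start, with signals of 51.72 and 41.94. The first was found in replicate 1 alone, with a signal of 21.06. The second was found in replicates 1 and 2, with signals of 16.33 and 14.96. How the mapping of reads to repeated sequence affected the lists there was not tested.

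Of the piRNA biogenesis genes, papi had the strongest promoter region of all 10 members and zuc had none past the threshold. papi (FBgn0031401) encodes a Tudor and KH domain protein of the outer mitochondrial membrane that takes part in forming the 3′ ends of piRNAs. It lies on the forward strand at chr2L:2220748-2225544 and has 4 annotated start sites. The summits at 2221810 and 2222009 had pooled signals of 239.9 and 212, which ranked 390 and 508. They lay 279 and 80 bp upstream of the second start site, at 2222089, and inside an intron of the transcripts that begin at the first. No start site of another gene lay within 500 bp of either, and none of the other 8 pooled promoter regions at members had that property.

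The strongest papi promoter region had signals of 68.88, 82.85 and 88.12 in replicates 1, 2 and 3. Its ranks were 424, 564 and 334, so that 1.62% ± 0.239 of a replicate's regions were stronger (SD, n = 3). This was the least variable placement among the 7 genes with a promoter region in every replicate. By position, the first summit had its counterparts at 2221786, 2221878 and 2221760, with signals of 68.88, 82.85 and 84.1. The second had them at 2222001, 2222077 and 2221982, with signals of 64.63, 23.35 and 88.12. Replicates 1 and 3 thus had both summits among their strongest 2239 regions and replicate 2 only the first. At the first start site itself there was only a weak pooled region, at 2220119, 629 bp upstream, with a signal of 50.91 and no counterpart in replicate 3.

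The remaining thresholded region at papi lay past the end of the gene, at 2226396. It was 54 bp inside sau, the fly GOLPH3 gene of Golgi function, and 102 bp upstream of CG15387. Its pooled signal was 201.4, rank 574. The replicates gave 52.14, 72.13 and 74.05 with summits within 12 bp of one another, and 2.48% ± 0.0819 of each list was stronger (SD, n = 3). It was one of the most even regions of the set, but stood 3196 bp from the nearest papi start.

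zuc (FBgn0261266), which encodes the mitochondrial nuclease that cuts piRNA precursors, is the shortest member, with 1148 bp at chr2L:11988735-11989882 on the reverse strand. Its divergent neighbour dgt2, a gene of the augmin complex, starts 54 bp away. The thresholded region counted at zuc lay downstream of the gene, at 11988101, with a pooled signal of 107.4 and rank 2097. It was 62 bp upstream of CG6686 and 169 bp upstream of CG34163, and 1781 bp from the zuc start. Signals were 33.71, 42.67 and 25.6 in the replicates, with summits within 1 bp, and only replicate 3 placed it outside its strongest 2239. At the shared promoter of zuc and dgt2, replicate 2 alone listed a region, with a signal of 24.33 and rank 6516, in the zuc coding sequence 102 bp from its start.

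**Figure D1:**
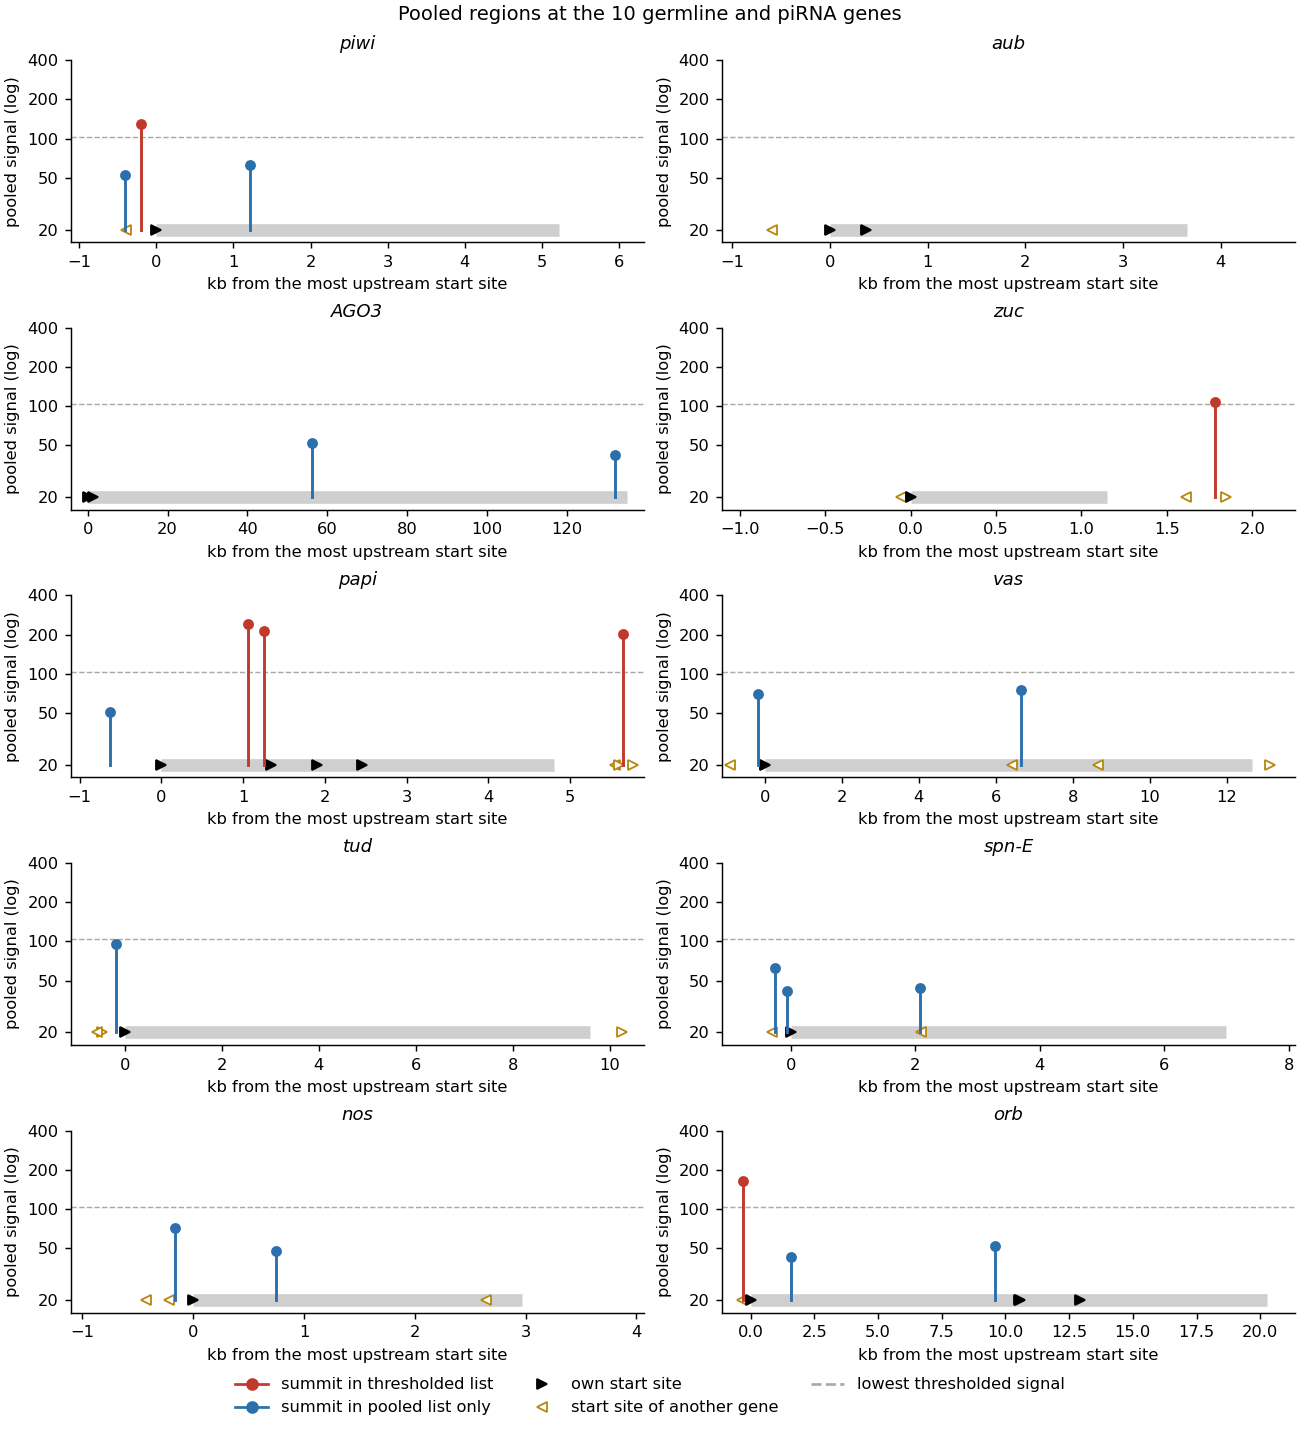
Pooled regions along each of the 10 genes, with the distance from the most upstream start site in kb on the x axis, in the direction of transcription, and the pooled signal as the authors gave it on a log y axis. Grey bars are genes, black and open triangles are own and other genes' start sites, and red and blue stems are summits in the thresholded list and in the pooled list only. The red stems stand at piwi, zuc, papi and orb, and aub has no stem.

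The nuage genes vas, tud and spn-E all had promoter regions in the pooled list and in every replicate, and none of these passed the threshold. Of all 13968 protein-coding genes, 3729 had one in the pooled list and in every replicate list, and 11.6% had a thresholded one. vas (FBgn0283442), which encodes a DEAD-box RNA helicase of nuage and pole plasm, spans chr2L:15061656-15074311 on the forward strand. Its promoter region at 15061467, 189 bp upstream of the start that it shares with solo, a gene of meiotic chromatid cohesion, had a pooled signal of 70.17. Replicate signals were 16.86, 14.74 and 41.18, with ranks of 11589, 20924 and 1806. Replicate 3 alone placed it among its strongest 2239. A second region lay inside an intron, at 15068320, 242 bp upstream of the nested gene vig, with a pooled signal of 75.62 and replicate signals of 22.49, 17.95 and 37.79. Both vas regions therefore had their best rank in replicate 3 and their lowest in replicate 2, where the second ranked 2162 and 13235.

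tud (FBgn0003891) encodes a protein of many Tudor domains that assembles the pole plasm, and spans chr2R:21183322-21192913 on the forward strand. Its single pooled region, at 21183149 and 173 bp upstream, had a signal of 95.81 and rank 2572. This made it the member region closest below the threshold, which ended at a signal of 103.5. Signals of 30.51, 33.85 and 23.17 in the replicates gave ranks of 2372, 3297 and 6095. tud was the only gene of the 7 whose best rank number was not in replicate 3, which has the shortest replicate list. Its own start was the nearest, with those of tRNA:Gly-GCC-1-13 and tRNA:Trp-CCA-2-6 at 293 and 400 bp from the summit.

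spn-E (FBgn0003483), which encodes a DExH-box helicase with a Tudor domain in the nuage, spans chr3R:15837419-15844415 on the forward strand. Its promoter summits lay at 15837164 and 15837363, with pooled signals of 62.6 and 41.5. The stronger was 47 bp from the divergent start of ND-23, a subunit gene of respiratory complex I, and 255 bp from that of spn-E. The weaker, which carries the DRE shown above, was 56 bp upstream of spn-E. It ranked 14388 of 15592, near the lowest signal of the pooled list, 40.18. The strongest promoter region had signals of 19.86, 16.61 and 35.55, ranks 7029, 15900 and 2487, so again best placed in replicate 3 and lowest in replicate 2. An intronic region at 15839490, 25 bp inside the nested gene Pbp45, had a pooled signal of 43.67 and a counterpart in replicate 2 alone, with 25.77.

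Of the genes of germline RNA regulation, orb had a thresholded promoter region and nos a weaker one. orb (FBgn0004882), a CPEB-family RNA-binding protein gene needed for translation of localised mRNAs in the oocyte, spans chr3R:23260610-23280856 on the reverse strand. Its promoter summit at 23281148 had a pooled signal of 164.6 and rank 900. It was 292 bp upstream of the most upstream orb start but only 53 bp upstream of the divergent start of Cdc16, a subunit gene of the anaphase-promoting complex. Replicate signals of 36.55, 56.84 and 72.8 gave ranks of 1593, 1213 and 525, with 3.94% ± 1.42 of the list stronger (SD, n = 3). All 3 replicates thus had it among their strongest 2239, and their summits lay within 40 bp. Inside the gene the pooled list held weak regions at 23271263 in an intron and at 23279281 in a 5′ UTR exon, with signals of 51.85 and 42.96. Neither was found in replicate 3.

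nos (FBgn0002962, nanos in Ensembl), which encodes the translational repressor that patterns the posterior embryo and protects germ cell fate, spans chr3R:19157238-19160202 on the forward strand. Its promoter region at 19157075 had a pooled signal of 71.28 and rank 4388. It was 163 bp upstream of nos and 58 bp upstream of the divergent start of CG11779. Signals of 21.72, 14.57 and 34.9 in the replicates gave ranks of 5414, 21447 and 2578. The percentage of stronger regions ran from 12.2% to 71.5%, a mean of 33.9% ± 32.7 (SD, n = 3). The SD of nos was the largest of the 7. A weaker pooled region 748 bp inside the gene had a signal of 47.85 and counterparts in replicates 2 and 3, with 18.4 and 14.54.

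The order of the promoter regions by the mean share of stronger regions was papi, orb, piwi, tud, spn-E, nos and vas. The means were 1.62%, 3.94%, 8.51%, 15.9%, 29.4%, 33.9% and 38.9%. Their SDs over the 3 replicates were 0.239, 1.42, 7.54, 11.3, 21.2, 32.7 and 30.6. papi stood above orb in every replicate, with 1.41%, 1.88% and 1.57% stronger against 5.31%, 4.04% and 2.48%. All other neighbours in this order overlapped in their replicate values. No test was made of these placements, since the genes were chosen with earlier results known. By rank number, the best placement was in replicate 3 for 6 of the 7 genes. Over all 3729 protein-coding genes with a promoter region in the pooled list and every replicate list, 43% had it there. The replicate 3 list is shorter, with 21147 regions against 30000. By the share of stronger regions papi and piwi, like tud, were best placed in replicate 1. Their shares there were 1.41% and 3.7%, against 1.57% and 4.64% in replicate 3. The background was counted by rank number only.

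**Figure D2:**
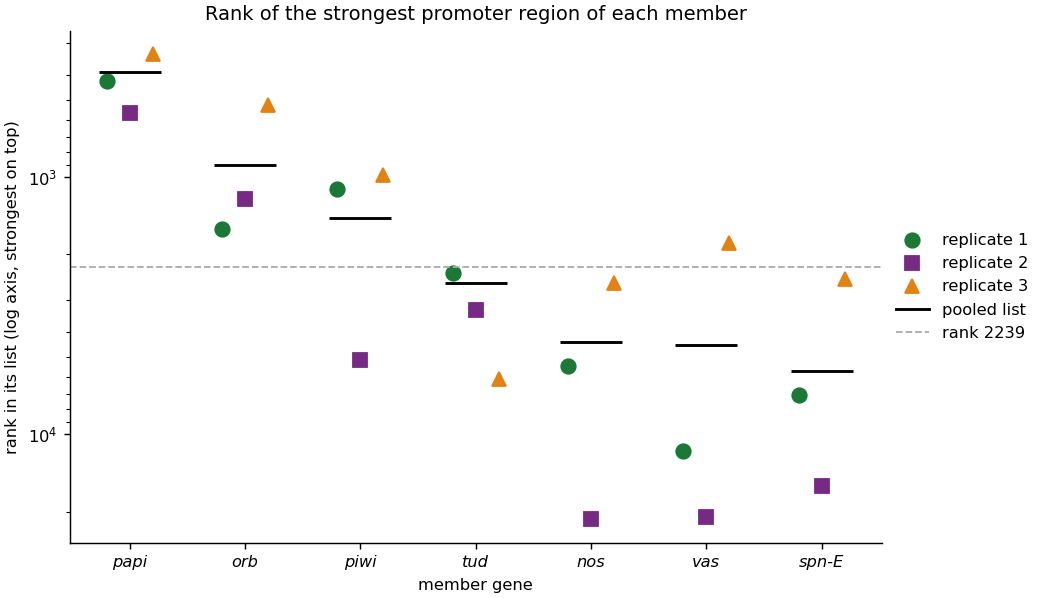
Rank of the strongest promoter region of each of the 7 genes with one in the pooled list and every replicate list, on a log y axis with the strongest at the top. Circles, squares and triangles are replicates 1, 2 and 3, the black bar is the pooled list and the dashed line is rank 2239. papi and orb lie above the line in all 3 replicates, piwi in replicates 1 and 3, and vas in replicate 3 only.

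Counted over lists, the 10 genes had pooled promoter regions at 7 and any pooled region at 9, where 38.3% and 56.6% of all protein-coding genes had them. The pooled list has 15592 regions and includes background. In the full replicate lists, promoter regions lay at 8, 8 and 7 members against 42.6%, 49.1% and 43.9% of all protein-coding genes. Any region lay at 10, 9 and 9 members against 72.8%, 73.7% and 65%. Restricted to the strongest 2239 regions of each replicate, promoter regions lay at 3, 2 and 4 members, with backgrounds of 10.8%, 10.8% and 12.3%. Regions in or within 1000 bp of the gene then lay at 4, 3 and 4 members, with 16.8%, 16.9% and 18.1%. In a list of 10 each gene is worth 10 percentage points, and 8 of the 10 genes have a divergent start within 1000 bp, against 38.2% of protein-coding genes. Of the 10 genes, 9 are longer than the median protein-coding gene of 2164 bp, and longer genes have more room for a region. The backgrounds were not matched for length or for divergent starts, and their part in these counts was not tested.

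**Figure D3:**
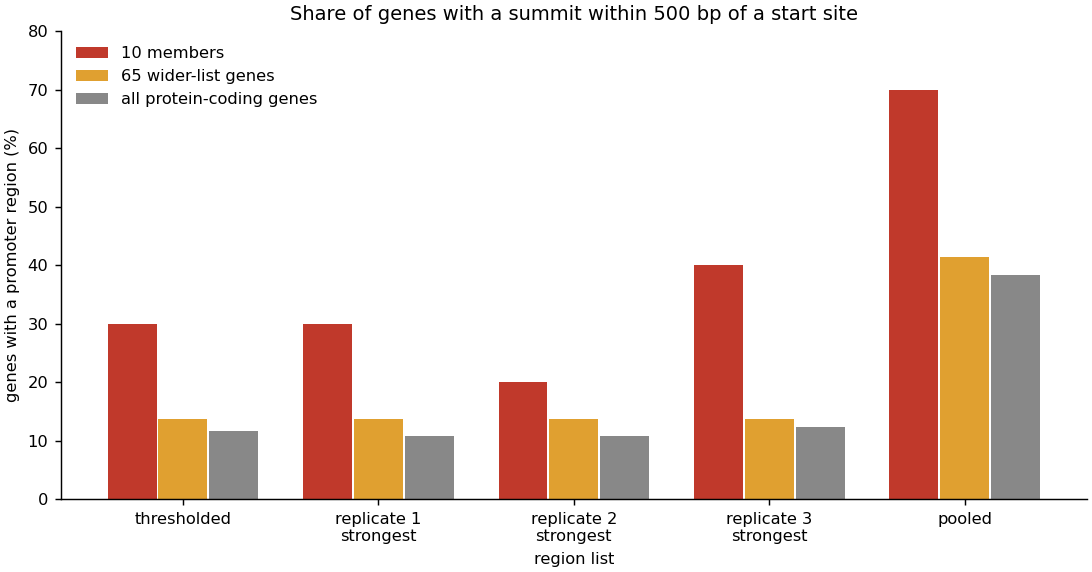
Percentage of genes with a summit within 500 bp of a start site in the thresholded list, in the strongest 2239 regions of each replicate and in the pooled list. Bars are the 10 genes, the 65 genes of a wider germline and piRNA list, and all protein-coding genes. The 10 genes reach 30% in the thresholded list and 70% in the pooled list, and the wider list 13.8% and 41.5%.

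The positions of the regions had features in common that the 1000 bp rule did not use. All 10 pooled promoter regions lay upstream of the nearest start of the member, whereas 73% of 6952 such regions at all protein-coding genes did. These 10 regions come from 7 genes and are not independent, since piwi, papi and spn-E each have 2 overlapping ones. In 8 of the 10 a start of another gene lay within 500 bp, against 49.3% of the 6952. Of the 6 thresholded regions, 4 were nearest to another gene's start within 500 bp, where 33.7% of 3120 such regions at all protein-coding genes were, and the starts were those of Cdc16, CG12253, sau and CG6686. Only the papi promoter summits were nearest to a start of the member itself. For piwi the difference was small, with 199 bp to its own start and 187 bp to that of CG12253. In replicate 2 the piwi start was the nearer, with 188 against 198 bp. Among the 11 other pooled regions, 7 were intronic, 2 downstream, 1 upstream and 1 in a 5′ UTR exon. Pooled regions numbered 9.45 per 100 kb of the 10 genes and their flanks, against 13.4 over all protein-coding genes. Without the long AGO3, left out after seeing the data, the density was 22.3 per 100 kb. The 13.4 keeps all long genes, and no background without them was counted, so the 22.3 has no matching value.

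**Figure D4:**
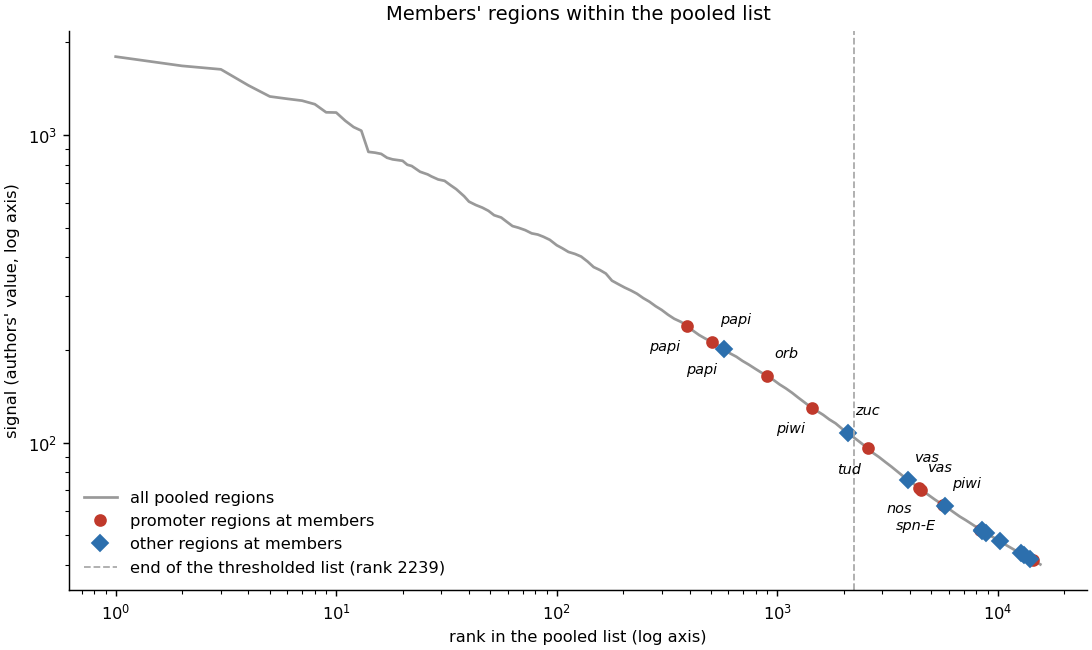
Signal against rank for all pooled regions (grey line, both axes log), with promoter regions of the 10 genes as red circles and their other regions as blue diamonds. The dashed line marks rank 2239, where the thresholded list ends. Of the 21 member regions 6 lie to its left, from papi at rank 390 to zuc at rank 2097, and tud at rank 2572 is the first to its right.

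Beyond the windows shown, motifs were counted in 100 bases to each side of every summit, on both strands with overlaps allowed. For each set of letters, the share of the 1272 thresholded promoter regions holding it is given first and that of all protein-coding promoters second. Neither set is fully like the member regions, which are 10 pooled regions, 4 of them thresholded. No share or base composition was computed over all pooled promoter regions. The windows of protein-coding promoters are equally long but end at the most upstream start site, and are not centred on summits. GAGAG was found in 2 of the 10 member promoter regions, both at papi, against 22.8% and 22.1%. The E-box CAGCTG was found in 2, at papi and orb, against 11.4% and 11.6%. Another E-box, CACGTG, was found in 0 of the 10, against 2.67% and 2.23%. The TATA box, searched as TATAAA, was found in 5, at vas, spn-E, nos and orb, against 37.7% and 37%. The homeodomain core TAATTA was found in 3, at piwi, papi and nos, against 15.5% of both. The DRE was found in 1, at spn-E, against 6.68% and 7.38%. The letters AGATAA, bound by zinc finger proteins of the GATA family, were found in 0 of the 10, against 13.4% and 14.1%. Core promoter Motif 1 was also found in 0, against 1.97% and 1.93%. The windows were poor in G and C, with a median of 29.4% and a range of 19.4% to 42.8%, where thresholded promoter regions had a median of 35.3% and all protein-coding promoters 37.3%.

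In a wider list of 65 germline and piRNA genes, 9 had a thresholded promoter region, which is 13.8% (exact Clopper-Pearson 95% interval 6.53% to 24.7%, counting error only) against the 11.6% of all protein-coding genes. None of the 12 further piRNA biogenesis genes and none of the 7 nuage and ping-pong genes was among them. In groups this small, 0 is not read as a departure from 11.6%. Pooled promoter regions lay at 4 of the 12 and 1 of the 7, where 38.3% of all protein-coding genes had one. The 9 comprised 4 of 19 germ plasm and germ cell genes, 3 of 12 gametogenesis genes, 1 of 9 genes of piRNA cluster transcription and export, and 1 of 6 nuclear silencing genes. The strongest was gus, whose product binds the Vasa protein, with a pooled signal of 346.6 and replicate signals of 159.3, 120.1 and 68.46. wun, the lipid phosphatase gene that guides migrating germ cells, followed with 296.6, and replicate signals of 86.95, 51.29 and 98.88. Both were among the strongest 2239 regions of every replicate, with ranks of 57, 243 and 609 for gus and of 244, 1494 and 250 for wun.

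The other genes of the wider list had pooled signals nearer the threshold. Sxl, the sex-determining splicing regulator, had 154.9, bgcn, a partner of bam in germ cell differentiation, 137.6, and exu, needed to localise bicoid mRNA, 132.9. These 3 were also among the strongest 2239 regions of every replicate, as were gus and wun. cuff, which acts in the transcription of piRNA clusters, had 130.5, and panx, which acts with Piwi in nuclear silencing, had 115.8. Both missed that rank in replicate 1, with ranks of 2366 and 2830. egl, an adaptor between mRNA and dynein, had 112.4 and was within it in replicate 1 only. Tm1, a tropomyosin gene with a role in oskar mRNA transport, had 106.7 and was outside it in replicate 3. Other genes started within 500 bp of the summit at exu (galla-1), cuff (CG13185) and panx (CG9485).

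The genes whose 3 replicate signals were nearest to those of the papi promoter region, among 1613 protein-coding genes compared, were MED30, Rev1 and CG17726. MED30, of the Mediator complex, and Rev1, a translesion DNA polymerase gene, share 1 region with signals of 66.94, 87.85 and 84.95, at a Euclidean distance of 0.108 on the log2 scale. CG17726 had 75.75, 86.61 and 93.69, at a distance of 0.175. Likeness over 3 values is a description only.

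Some weak regions at the 10 genes overlapped no region of the pooled list. In replicate 1 this held for 18 of 36 regions (50%), where 54.1% of its regions at all protein-coding genes did so. In replicate 2 it held for 12 of 33 (36.4%), against 49.4%. In replicate 3 it held for 5 of 19 (26.3%), against 40.6%. The best rank among them was 9656, 6516 and 6218 in turn, all outside the strongest 2239. Replicates 1 and 2 have 30000 regions each in their lists, and replicate 3 has 21147.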

How the data were processed

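ChIP-seq regions were analysed for 3 biological replicates in 1 group. Per the deposited README files, regions, background included, were called by the authors on each replicate against 1 shared control file and on the pooled alignments, and the thresholded list holds those passing the optimal threshold of the irreproducible discovery rate. The deposited signal of a region is the authors' value on an undescribed scale, and was used to rank regions within a list. Its log2 values were also compared between genes, within each replicate list, to find the genes nearest to papi. Signals printed for several replicates are not on a scale known to be shared, so replicates were compared by rank. The deposited summit offset gave positions. For aligner and peak caller, names were not given in the sources used here. No read counts are listed, so depth is unknown. Fragments were 200 to 800 bp, per the labels. The dm3 lists and the control library were not analysed here.

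Genes came from Ensembl release 115 and sequence from RefSeq, both of the dm6 assembly: all 10 genes had the same ends in both, and 0 regions ran past an arm. Annotated transposons were not counted as neighbouring genes. Distances run from summits to start sites, and regions sharing at least 1 bp matched across lists. Work used Python 3.11.15, pandas 2.3.3, numpy 2.4.6 and scipy 1.17.1, and the counting was tested on simulated data. The 10 genes and all lists and motifs were chosen with earlier results of these data known, so no test was made. Named are the 10 genes, genes starting within 500 bp of their promoter summits or holding their regions, wider-list genes with a thresholded promoter region, and the 3 genes nearest to papi by replicate signals. Neighbours of regions that are not promoter regions, and background genes, were named after their positions were seen. All 65 wider-list symbols were matched. Alternatives covered window widths, start sites, list strength, left-out replicates, annotation and motif windows.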

Additional observations from a re-analysis of the deposited data

How the results depend on the processing

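The lists hold no read counts, so differences in depth between replicates could not be weighed, and the full lists include background. Members with a thresholded promoter region, 3 as reported, numbered 2 with a 250 bp window (orb lost), 2 with the most upstream start only (papi lost), and 1 among the strongest 500 regions. The shares of all protein-coding genes under these settings were 9.29%, 10.2% and 3.05%. Members with a region within 1000 bp, 4 as reported, and the 6 thresholded regions fell to 1 and 2 without flanks and to 1 and 1 among the strongest 500 regions. All protein-coding genes fell there from 2456 to 983 and 672, and their promoter count from 1625 to 426. The wider list, 9 as reported, gave 14 (21.5%) with a 1000 bp window, 4 (6.15%) with the most upstream start only and 2 (3.08%) among the strongest 500 regions. All protein-coding genes gave 13.3%, 10.2% and 3.05% under the same settings. With a 250 bp window 1 member was left in the strongest regions of replicates 1 and of 2, where no share of all genes was counted.

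Requiring support among the strongest regions of both remaining replicates, with each replicate left out in turn, gave 2 to 3 members with a promoter region, 2 to 3 with any region, 4 to 5 regions, 5 to 7 wider-list genes, and 1072 to 1107 protein-coding genes by promoter and 1656 to 1759 by gene. piwi was lost without replicate 1 and without replicate 3, and zuc without replicate 1 and without replicate 2. The wider list fell to 5 without replicate 2, members with any region to 2 without replicate 1, and protein-coding genes by promoter to 1072 and 1081 without replicates 1 and 2. Counting only summits nearest to the member's own start left 1 member, papi, and counting only regions with no other gene's start within 500 bp also left 1, papi. Both of these were chosen after seeing the data. No share of all protein-coding genes was counted under them, so the falls to 1 have no background beside them.

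The percentage of stronger regions differed from the pooled one by more than 1 SD of the replicates for piwi (17.2%), vas (69.7%), nos (71.5%) and orb (4.04%) in replicate 2, for tud (28.8%), spn-E (11.8%) and orb (2.48%) in replicate 3, and for papi in all (1.41%, 1.88% and 1.57%). Departures within 1 SD could be larger in points, as for vas in replicate 3 (8.54% against 28.8%). The lists differ in length, and papi ranked 424, 564 and 334 against 390 in the pooled list. Counts of promoter regions with a motif moved with the window. With 200 bases to each side the DRE reached 3 regions at 2 members, and the GATA letters 1. The homeodomain core reached 5 regions but stayed at 3 members. Windows of neighbouring summits overlapped at this width, so a single site at spn-E (DRE), papi or piwi (homeodomain core) was counted in 2 regions. With 50 bases the TATA box fell to 2 and the homeodomain core to 1. The pooled promoter count stayed at 6 to 7 members. Apart from the shared motif sites, the cause of these changes was not tested. No paired analysis was possible because there is 1 group.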
